A study of Mus musculus with 8 samples.

Results

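Apoe, Apoc1, Apoc2 and Apoc4, the lipid transfer protein gene Pltp, the receptor genes Trem2 and Lrp1 and the adaptor gene Tyrobp were followed through all leukocyte clusters of the mouse brain, pia and dura before and after ischemic stroke. The 8 genes were chosen by name, and all 8 are among the 30406 genes listed in every library. For each gene, the transcript tags (unique molecular identifiers, UMIs) were summed over the cells of each library and cluster and expressed as CPM, which scale the counts to a fixed total of UMIs in that sum. The 21 clusters are those deposited by the study. B cells (Bc), T cells (Tc), γδ T cells (gdTc) and type 2 innate lymphoid cells (ILC2) served as background, with natural killer cells (NK) shown apart because they are known to use the Tyrobp protein.

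The 8 libraries were prepared from adult male C57BL/6 mice of 10 to 16 weeks that had no genetic modification. Middle cerebral artery occlusion (MCAO) for 30 or 45 min preceded the 24 h and 72 h libraries. Which of these durations applied to a library is not given in the sources used here. Brain, pia and dura each gave a control library and a library at 24 h, and brain gave a further library at 24 h and 1 at 72 h, so that only brain at 24 h had 2 replicates. Sorted cells were CD45+ and lacked the CD45 antibody given intravenously (CD45iv-), which marks leukocytes of tissue rather than blood. How many mice were pooled for each library is not given per library. The study's methods give naive mice as the controls of these libraries, whereas a figure legend names sham mice, and they are called control here. Brain stands in the title of the pia control but pia in its other labels, which were followed, so every pia control value rests on that choice. Brain cells alone passed a density gradient, so tissue and preparation cannot be told apart.

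Apolipoprotein E is the main lipid carrier of the brain and is known to be made by astrocytes and, in lower amounts, by resting microglia. Macrophages of many tissues make it abundantly when they take up lipid. Apoc1, Apoc2 and Apoc4 encode small exchangeable apolipoproteins and lie next to Apoe in one gene cluster, and Apoc2 is the cofactor of lipoprotein lipase. Pltp moves phospholipid between lipoproteins and, like Apoe, is a known target of the liver X receptors, nuclear receptors for oxidised sterols. Trem2 is a surface receptor of myeloid cells that binds lipids and apolipoproteins, and it signals through the adaptor DAP12, encoded by Tyrobp, which many other receptors of myeloid and NK cells share. Lrp1 is a large endocytic receptor that takes up particles carrying apolipoprotein E.

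On mouse genome build GRCm38, Apoc2 (chr7:19671579-19677941), Apoc4 (chr7:19678083-19681479), Apoc1 (chr7:19689481-19692660) and Apoe (chr7:19696109-19699188) lie in this order on the minus strand within 27610 bases. Tyrobp (chr7:30413760-30417585, plus strand) is on the same chromosome, with Hcst, the gene of the related adaptor DAP10, ending next to it on the other strand. Pltp (chr2:164839518-164857711, minus strand) overlaps at its 3′ end with Ctsa on the plus strand. Trem2 is at chr17:48346401-48354147 on the plus strand and Lrp1 at chr10:127538161-127621148 on the minus strand. The 250 bases before the start of Apoe (chr7:19699189-19699438, minus strand), Pltp (chr2:164857709-164857958, minus strand) and Trem2 (chr17:48346151-48346400, plus strand) are shown because these 3 genes give the tissue patterns described most fully below. The starts are those of RefSeq, which for Pltp and Apoc4 lie slightly inside the genes as given above. Sequences are from RefSeq on GRCm38.p6, 5′ to 3′, with capitals for the letters of 3 searched motifs on either strand: GAGGAA, the core bound by PU.1 and other ETS factors, AGGTCA, the half-site of nuclear receptors, and GGGCGG, the GC box.
Apoe: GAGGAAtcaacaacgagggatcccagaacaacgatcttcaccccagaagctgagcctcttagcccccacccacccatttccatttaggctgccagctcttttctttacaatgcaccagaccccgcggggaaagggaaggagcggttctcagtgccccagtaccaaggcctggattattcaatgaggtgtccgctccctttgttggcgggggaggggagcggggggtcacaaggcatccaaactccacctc
Pltp: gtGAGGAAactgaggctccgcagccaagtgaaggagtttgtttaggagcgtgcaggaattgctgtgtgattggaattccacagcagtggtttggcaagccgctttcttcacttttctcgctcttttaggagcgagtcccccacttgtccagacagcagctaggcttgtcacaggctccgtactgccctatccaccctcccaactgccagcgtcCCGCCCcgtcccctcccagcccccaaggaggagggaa
Trem2: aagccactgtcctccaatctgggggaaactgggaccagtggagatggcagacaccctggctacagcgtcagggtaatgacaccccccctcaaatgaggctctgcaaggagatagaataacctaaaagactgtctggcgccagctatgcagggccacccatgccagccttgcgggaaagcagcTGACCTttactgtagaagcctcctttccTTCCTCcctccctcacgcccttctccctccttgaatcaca
GAGGAA begins 250 bases before the Apoe start and 248 bases before the Pltp start, and its reverse complement begins 40 bases before the Trem2 start. The Pltp window also holds the reverse complement of GGGCGG at 37 bases, and the Trem2 window that of AGGTCA at 68 bases. The Apoc2 and Apoc4 windows hold AGGTCA, 115 and 25 bases before their starts. Windows of this length hold GAGGAA in 23.3%, AGGTCA in 14.0% and GGGCGG in 32.7% of 32851 annotated starts, so these matches are common, and they describe letters and not bound sites. RefSeq gives Apoe further starts, of which 1 has the TATA box letters TATAAA 96 bases before it (12.4% of starts).

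The files held 6591898 to 20754181 UMIs per library, and the annotated cells had a median of 1083 to 2505 UMIs. The files of brain 24 h replicate 2 and brain 72 h list 31053 genes and those of the other 6 libraries 32285, which marks processing against different annotations. Annotated barcodes were shared by 10 to 32 cells in each of the 15 library pairs with the longer list, by 8 in the pair with the shorter list and by 0 to 2 in the 12 mixed pairs, so the libraries stood in the same groups by this measure. In brain, the control and 24 h replicate 1 carry the longer list and 24 h replicate 2 and 72 h the shorter one, so time within brain was also read within each list. The border macrophage genes Pf4, Lyve1, Mrc1, F13a1, Cbr2 and Ms4a7 summed to 49.8 and 8.66 CPM in CAM_1 of brain control and brain 24 h replicate 1, against 5798 to 8070 CPM in CAM_1 of pia and dura. CAM_1 and CAM_2 carry the study's label of CNS-associated macrophages, and in these brain libraries the label went against the markers: the microglia genes Tmem119, P2ry12, Sparc and Cx3cr1 summed to 11976 and 3894 CPM in CAM_1, against 188 to 391 CPM in pia and dura. Conversely, the clusters labelled as microglia carried 4772 and 2217 CPM of the border macrophage genes in the dura control and dura 24 h libraries, and 1003 and 577 CPM of the microglia genes.

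Apoe was highest in the macrophage clusters and reached several percent of all UMIs there. CAM_2 had 41950 ± 29483 CPM (SD, n = 8 libraries), CAM_1 30771 ± 24904 CPM (n = 8) and Macro_2 22765 ± 14045 CPM (n = 8). The stroke-associated myeloid cells (SAMC) had 20783 ± 23660 CPM (n = 4) and Granulo_1, a cluster labelled as granulocytes, 11317 ± 11893 CPM (n = 7). Macro_1, with enough cells only in brain at 72 h, had 25595 CPM. Neighbours in this order differed by less than the larger of their SDs. Only sums of at least 30 cells were used, and because the clusters were drawn from the same counts, differences between them are a description.

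**Figure D1:**
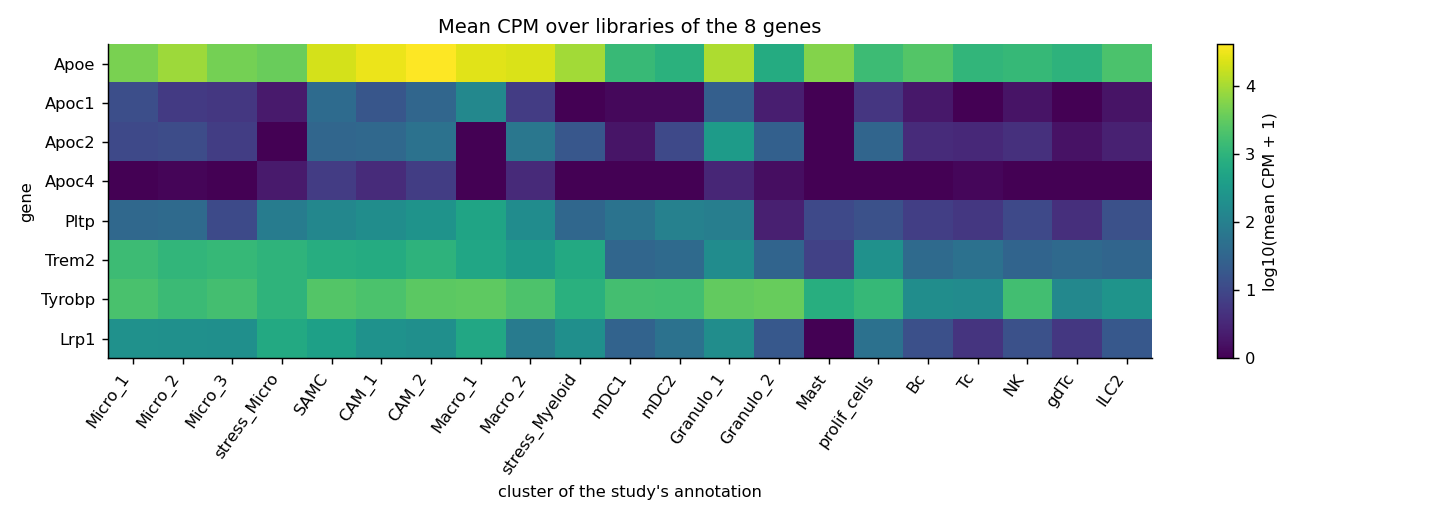
Mean CPM over libraries of the 8 genes (rows) in the 21 clusters (columns), as log10(mean CPM + 1), over library sums of at least 30 cells. Brighter colours are higher values. Apoe and Pltp are brightest in the macrophage clusters, Trem2 in the microglia clusters, Tyrobp in all myeloid clusters and NK, and Apoc2 in Granulo_1. Colours are to be compared along a row only.

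In CAM_1 and CAM_2 the wide SD of Apoe came mostly from the brain libraries. In CAM_1, Apoe was at 1329 CPM in brain control, 548 and 3612 CPM in the brain 24 h replicates and 36604 CPM in brain at 72 h, against 57784 CPM in pia control, 41583 CPM in pia at 24 h, 49969 CPM in dura control and 54735 CPM in dura at 24 h. All brain libraries were below all pia and dura libraries in this cluster. CAM_2 had 6409, 5016, 16688 and 51160 CPM in the brain libraries in the same order, 87136 and 49821 CPM in pia and 58797 and 60576 CPM in dura, so that brain at 72 h lay within the range of the borders. Within every library Apoe was higher in CAM_2 than in CAM_1, by 1.11 to 9.16 times with a median of 1.45.

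Macro_2, a cluster labelled as macrophages, showed another pattern. It had 29666 CPM of Apoe in brain control, 5362 and 6997 CPM in the brain 24 h replicates, 7120 CPM in brain at 72 h, 37716 and 26394 CPM in pia and 30696 and 38170 CPM in dura, so brain control lay within the range of the borders and the 3 brain stroke libraries below it. The brain control value rests on 35 cells. In Macro_2 the microglia genes summed to 1421 CPM in brain control and to 253 to 490 CPM in the other libraries.

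SAMC had 268 and 4799 CPM of Apoe in the brain 24 h replicates, 52012 CPM in brain at 72 h and 26053 CPM in pia at 24 h. Among these 4 libraries SAMC was above CAM_1 in 2 and above Micro_1 in 3. SAMC of the controls and of dura had fewer than 30 cells each and are not given.

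In the microglia clusters Apoe was lower. Micro_1 had 332 CPM in brain control, 617 and 1162 CPM in the brain 24 h replicates, 3109 CPM in brain at 72 h, 4782 and 4353 CPM in pia and 20413 CPM in dura at 24 h, and Micro_1 was below CAM_2 in 7 of 7 libraries (median ratio 0.0696). Micro_2 had 394, 961, 1479 and 3797 CPM in the brain libraries and 27544 and 19062 CPM in pia, and Micro_3 had 558, 761, 1804 and 3828 CPM in brain and 15874 and 3975 CPM in pia. The brain libraries stood in one order in all 3 clusters, with brain control lowest and brain at 72 h highest, while the pia libraries were above every brain library. The border macrophage genes in the microglia clusters summed to 2.95 to 41.5 CPM in brain, 919 to 939 CPM in pia and 2217 to 4772 CPM in dura, thus moving with Apoe. Their part in the result was not tested. The lymphoid background without NK stood in the same order in brain, with 46.6, 119, 280 and 941 CPM. The first 2 of these values rest on 3 and 9 UMIs. In pia this background was higher, at 4373 and 1669 CPM, so Micro_1 of pia control lay near it. Micro_1 exceeded T cells in 7 of 7 libraries, by 1.28 to 13.8 times where T cells had a UMI.

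**Figure D2:**
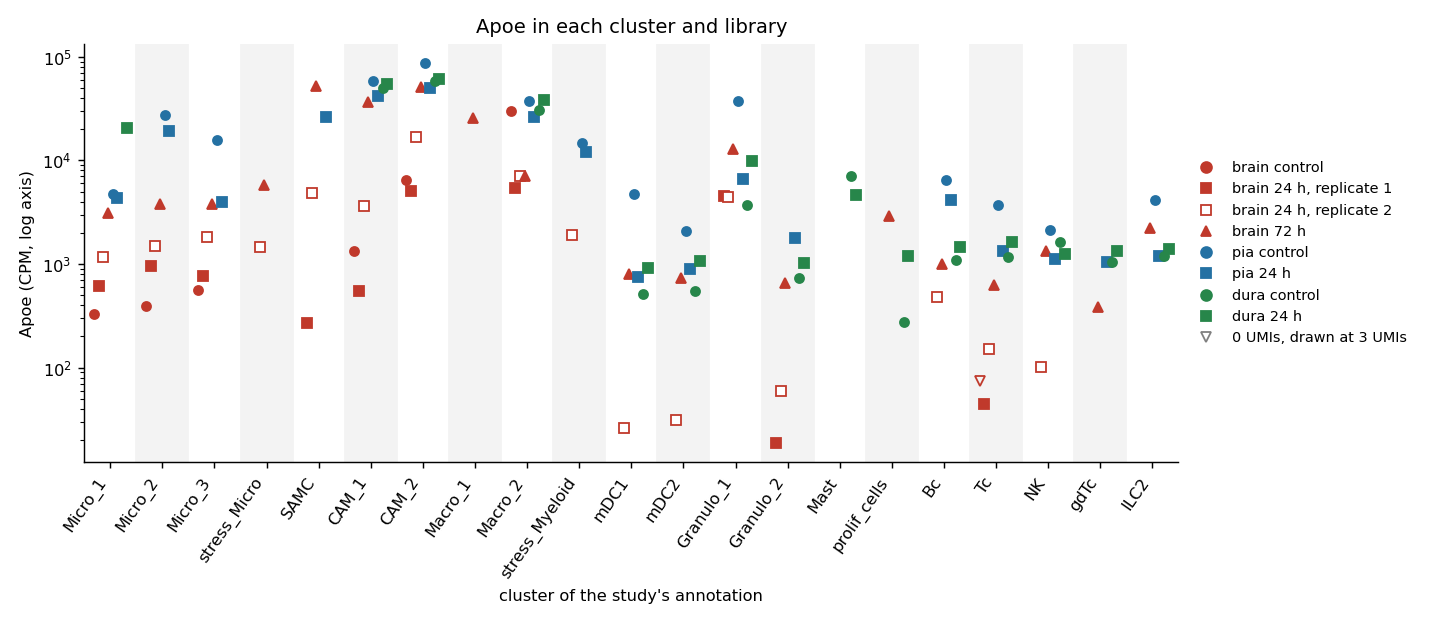
Apoe in CPM (log axis) by cluster, 1 point per library with at least 30 cells of the cluster. Colour gives the tissue (brain red, pia blue, dura green), the marker gives the time (circle control, square 24 h, triangle 72 h), the open square is brain 24 h replicate 2, and an open inverted triangle is a sum with 0 UMIs drawn at 3 UMIs. In CAM_1 the brain control and 24 h points lie between 548 and 3612 CPM and the pia and dura points between 41583 and 57784 CPM.

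The cells labelled as granulocytes divided into a cluster with more Apoe and a cluster with less. The dendritic clusters did not, as mDC2 was above mDC1 in 4 of 6 libraries and below it in 2. Granulo_1 exceeded Granulo_2 in 6 of 6 libraries, by 3.70 to 243 times, with 4513 and 4456 CPM in the brain 24 h replicates, 12947 CPM in brain at 72 h, 37201 and 6572 CPM in pia and 3703 and 9829 CPM in dura. The pia control value stood apart at 37201 CPM. The granulocyte genes S100a8, S100a9 and Retnlg, summed over both clusters, were at 18637 to 152370 CPM in 7 libraries. The border macrophage genes were at 439 to 2978 CPM there. These markers were not read for Granulo_1 alone, which also exceeded Granulo_2 in Pltp, Trem2 and Lrp1 in 6 of 6 libraries. The dendritic clusters mDC1 and mDC2 had 26.0 and 31.4 CPM in brain 24 h replicate 2 and 512 to 4767 CPM elsewhere, which overlapped with T cells. Mast cells, present in numbers only in dura, had 7081 CPM in the control and 4627 CPM at 24 h, and proliferating cells had 273 to 2937 CPM.

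Lymphoid cells gave the background that all these values are read against. In T cells, which are not known to make apolipoprotein E, Apoe was at 0 CPM in brain control (0 UMIs from 31 cells), 44.7 and 151 CPM in the brain 24 h replicates, 622 CPM in brain at 72 h, 3742 and 1322 CPM in pia and 1175 and 1645 CPM in dura. B cells had 479 to 6532 CPM. Over the lymphoid clusters without NK, Apoe was 4.28% to 11.2% of its level in the non-lymphoid cells of the same library, with a median of 6.63%, so the background followed each library's own level. CAM_2 exceeded T cells in 8 of 8 libraries, by 23.3 to 112 times where T cells had a UMI.

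Shares of cells with at least 1 UMI carried the same background. With every cell thinned to 1000 UMIs and shallower cells left out, which kept 8194 macrophages and 2257 lymphoid cells, Apoe was seen in 25.5% to 99.1% of macrophages (median 87.0% over 8 libraries), 18.4% to 89.1% of microglia (63.9%, 7 libraries), 23.9% to 100% of SAMC (59.6%, 4 libraries) and 2.56% to 79.0% of lymphoid cells without NK (47.8%, 8 libraries). Median depths before thinning were 1622 to 3254 UMIs in these macrophages and 1168 to 1953 UMIs in these lymphoid cells, and without thinning the macrophage median was 92.5%. The lymphoid shares overlapped with those of macrophages, microglia and SAMC.

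Within brain, Apoe was followed over time within each gene list, where only counting error can be given. From control to 24 h replicate 1, the ratio was 0.343 (exact 95% interval 0.328 to 0.359) in the summed macrophage clusters and 2.01 (1.91 to 2.12) in the summed microglia clusters. From 24 h replicate 2 to 72 h it was 3.91 (3.82 to 4.01) in macrophages, 2.61 in microglia, 10.8 (10.2 to 11.5) in SAMC, 4.08 in granulocytes, 27.5 in dendritic cells, 3.36 in lymphoid cells without NK and 13.3 in NK. All 7 cell groups were thus higher at 72 h, the lymphoid background included. The 24 h replicates themselves differed by 4.38 times in macrophages and 17.9 times in SAMC, more than the steps in time of these 2 groups.

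Apoc1 was sparse and was highest in macrophages and SAMC of brain at 72 h. The summed macrophage clusters held 0 UMIs in brain control, 5 and 11 UMIs in the brain 24 h replicates, 389 UMIs in brain at 72 h, 23 and 48 UMIs in pia and 14 and 63 UMIs in dura. These are 0, 2.30, 12.3, 78.6, 5.56, 12, 6.42 and 23.1 CPM. SAMC of brain at 72 h held 348 UMIs (151 CPM), against 8.21 CPM in brain 24 h replicate 2 and 0 UMIs in the other libraries with at least 30 SAMC. Granulo_1 also held Apoc1, with 15 and 18 UMIs (47.8 and 17.2 CPM) in the brain 24 h replicates and 218 UMIs (60.7 CPM) in brain at 72 h. In replicate 1 this was above the summed macrophage clusters. In pia and dura, Granulo_1 held 0 UMIs in the controls and 20 and 5 UMIs at 24 h. T cells had 0 UMIs of Apoc1 in all 8 libraries. NK of brain 24 h replicate 2, B cells of brain at 72 h and ILC2 of dura control held 1 UMI each, and no thinned NK cell showed Apoc1. Within gene lists the macrophage ratio was 6.41 (3.54 to 13) for brain 72 h over 24 h replicate 2, 2.15 (1.28 to 3.71) for pia 24 h over control and 3.60 (2.00 to 6.96) for dura 24 h over control, all higher at the later time in the sum. Macro_2 alone went the other way in brain, at 19.8 CPM in 24 h replicate 2 and 6.44 CPM at 72 h (ratio 0.325, 0.126 to 0.873), while CAM_2 was at 11.8 and 136 CPM.

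Apoc2, the cofactor of lipoprotein lipase, was highest in Granulo_1 and not in the clusters labelled as macrophages. Granulo_1 held 164 UMIs (523 CPM) in brain 24 h replicate 1, 0 UMIs in replicate 2, 3 UMIs (0.835 CPM) in brain at 72 h, 4 UMIs (44.3 CPM) in pia control, 434 UMIs (571 CPM) in pia at 24 h, 69 UMIs (455 CPM) in dura control and 219 UMIs (823 CPM) in dura at 24 h. Granulo_1 exceeded Granulo_2 in 5 of 6 libraries and Macro_2 in 6 of 7. The libraries with the shorter gene list fell outside the range of the others: over all annotated cells they held 1 and 12 UMIs of Apoc2, against 16 to 899 UMIs in the libraries with the longer list. The shorter list also holds Gm44805 (chr7:19671584-19681423, minus strand), whose exons cover 79.5% of the exonic bases of Apoc2 and 4.69% of those of Apoc4, and which has 0 UMIs in both libraries. The part of this overlap in the missing Apoc2 UMIs was not tested, and any fit below that takes in both gene lists sets these Apoc2 values side by side.

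Among the libraries with the longer list, Apoc2 in the summed macrophage clusters was at 18.1 CPM in brain control and 17.5 CPM at 24 h, 28.7 CPM in pia control and 95.6 CPM at 24 h, and 37.2 CPM in dura control and 159 CPM at 24 h. The ratio of 24 h to control was 3.33 (2.70 to 4.12) in pia and 4.28 (3.37 to 5.49) in dura. In CAM_2 it was at 5.09 and 10.4 CPM in brain, 28.4 and 145 CPM in pia and 52.4 and 177 CPM in dura, and in Macro_2 at 32.3 and 164 CPM in brain, 35.0 and 124 CPM in pia and 36.8 and 155 CPM in dura, controls first. In these clusters the 24 h library was above its control in all 3 tissues. The brain values rest on few UMIs, with 1 and 5 in CAM_2 and 2 and 26 in Macro_2, and the summed brain clusters did not rise. That sum depends on Macro_1, which enters it whatever its own number of cells. Of the 12 UMIs of the brain control sum, 9 came from 13 cells of Macro_1, which held 0 UMIs in brain 24 h replicate 1. After thinning, Apoc2 was seen in up to 30.6% of cells labelled as granulocytes (median 7.6%) and in at most 0.588% of lymphoid cells without NK. The summed lymphoid cells without NK held 0 UMIs of Apoc2 in both brain libraries of this list and 0 and 3 UMIs in pia, controls first. In dura they held 1 UMI (0.859 CPM) in the control and 14 UMIs (6.10 CPM) at 24 h. The dendritic cluster mDC2 had 0 and 47.5 CPM in pia and 1.57 and 8.97 CPM in dura. The 24 h libraries of pia and dura were thus higher outside macrophages too.

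Apoc4 had the fewest UMIs. The summed macrophage clusters held 0, 1, 1 and 33 UMIs in the brain libraries, 12 and 18 UMIs in pia and 4 and 27 UMIs in dura. Its highest levels were 23.4 CPM in CAM_2 of dura at 24 h (7 UMIs) and 22.6 CPM in SAMC of brain at 72 h (52 UMIs). No sum of at least 30 cells of B cells, γδ T cells, ILC2, dendritic or mast cells held a UMI of Apoc4. Thinned macrophages showed it in at most 1.16% of cells, so the depth allows little more than its presence to be stated.

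Pltp followed the macrophage clusters like Apoe, at lower levels. CAM_1 had 5.24 CPM in brain control, 2.00 and 29.1 CPM in the brain 24 h replicates, 499 CPM in brain at 72 h, 205 and 112 CPM in pia and 332 and 274 CPM in dura. CAM_2 had 0, 4.16, 147 and 642 CPM in the brain libraries, 224 and 161 CPM in pia and 419 and 327 CPM in dura. In both clusters brain control and 24 h replicate 1 were below every pia and dura library, while brain at 72 h was above them all. Macro_2 of brain control was again higher, with 145 CPM, against 37.9 and 220 CPM in the 24 h replicates and 337 CPM at 72 h, and it overlapped with pia (97.4 and 64.8 CPM) and dura (237 and 244 CPM).

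SAMC had 1.08 and 24.6 CPM of Pltp in the brain 24 h replicates, 443 CPM in brain at 72 h and 73.1 CPM in pia at 24 h, and were below CAM_1 and CAM_2 in 4 of 4 libraries. Of the dendritic clusters, mDC2 was above mDC1 in 6 of 6 libraries, with 58.5 to 157 CPM against 17.2 to 124 CPM. In brain at 72 h they were level, at 124.35 against 124.28 CPM. Lymphoid cells without NK had 0% to 9.57% of the level of the non-lymphoid cells (median 3.47%), and their thinned cells showed Pltp in at most 1.52%, against 0.775% to 30.6% of macrophages. From brain 24 h replicate 2 to 72 h the ratio was 3.40 (2.86 to 4.08) in macrophages and 18.0 in SAMC, and replicate 2 over replicate 1 was 29.6 in macrophages, larger than their step in time.

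By the mean over libraries, Trem2 was highest in the microglia clusters. Micro_1 had 1447 ± 674 CPM (SD, n = 7), Micro_3 1240 ± 484 CPM (n = 6), Micro_2 1084 ± 579 CPM (n = 6), CAM_2 987 ± 695 CPM (n = 8) and SAMC 754 ± 323 CPM (n = 4), each within the larger SD of its neighbour. The order of several pairs was steadier within libraries: Micro_1 exceeded Micro_2 and Micro_3 in 6 of 6 libraries and SAMC in 4 of 4, CAM_2 exceeded CAM_1 in 8 of 8 (1.23 to 1.69 times) and both exceeded Macro_2 in 8 of 8. Micro_1 against CAM_2 was not steady, being higher in 5 of 7 libraries and lower in 2 (0.594 to 2.13 times).

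In CAM_1 and CAM_2, Trem2 was higher in brain than at the borders, opposite to Apoe, whereas the tissues overlapped in Micro_1 and Macro_2. Micro_1 had 2309 CPM in brain control, 1979 and 1345 CPM in the brain 24 h replicates, 1851 CPM in brain at 72 h, 1417 and 878 CPM in pia and 351 CPM in dura at 24 h. CAM_1 had 1780, 931, 608 and 790 CPM in the brain libraries, 408 and 442 CPM in pia and 257 and 447 CPM in dura, and CAM_2 had 2586, 1256, 789 and 974 CPM in brain, 665 and 601 CPM in pia and 434 and 591 CPM in dura. In CAM_1 and CAM_2 no brain library overlapped with pia or dura, and brain control was highest. Macro_2 had 614, 183, 229 and 267 CPM in brain, 401 and 436 CPM in pia and 205 and 306 CPM in dura, with the 3 brain stroke libraries below both pia libraries.

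SAMC had 647 and 632 CPM of Trem2 in the brain 24 h replicates, 1229 CPM in brain at 72 h and 507 CPM in pia at 24 h. This was 0.327 to 0.664 times the level of Micro_1 and more than that of Macro_2 in 4 of 4 libraries. Proliferating cells of brain at 72 h had 611 CPM, against 7.81 and 32.8 CPM in dura, and Granulo_1 had 32.9 to 334 CPM. T cells had 13.8 to 114 CPM, and Micro_1 exceeded them in 7 of 7 libraries (median 23.3 times). Thinned cells showed Trem2 in 29.1% to 85.3% of microglia (median 60.9%), 19.8% to 82.9% of macrophages (34.0%), 35.1% to 66.7% of SAMC (40.6%) and 0.849% to 14.3% of lymphoid cells without NK (2.23%), so the lymphoid shares stayed below those of these 3 myeloid groups.

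Tyrobp, the adaptor, was present in all myeloid clusters. Granulo_2 had 3574 ± 1038 CPM (SD, n = 6), Granulo_1 3320 ± 210 CPM (n = 7), CAM_2 2916 ± 357 CPM (n = 8), SAMC 2442 ± 678 CPM (n = 4), Macro_2 2190 ± 325 CPM (n = 8), CAM_1 2015 ± 473 CPM (n = 8) and Micro_1 1994 ± 582 CPM (n = 7). Granulo_1 and CAM_2 differed by more than the SD of either cluster. Which of Granulo_1 and Granulo_2 had the higher mean changed when sums of at least 10 cells were allowed.

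In the summed macrophage clusters Tyrobp was at 2052 CPM in brain control, 2080 and 1996 CPM in the brain 24 h replicates, 3110 CPM in brain at 72 h, 2034 and 2140 CPM in pia and 2036 and 2293 CPM in dura. The tissues overlapped, with brain at 72 h above all others. Within libraries CAM_2 exceeded CAM_1 and Macro_2 in 8 of 8, and SAMC exceeded CAM_1 and Micro_1 in 4 of 4. The microglia clusters had 1918, 1841, 846 and 2342 CPM in the brain libraries, 2023 and 1554 CPM in pia and 2356 and 1887 CPM in dura, where brain 24 h replicate 2 was lowest.

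NK cells, which use DAP12 with their own receptors, had 1388 to 2032 CPM of Tyrobp over 6 libraries, whereas T cells had 79.0 to 291 CPM over 8. NK exceeded T cells in 6 of 6 libraries, by 8.32 to 21.1 times with a median of 10.7. Thinned NK cells showed Tyrobp in 58.8% to 77.9% and other lymphoid cells in 8.01% to 15.2%, while for Trem2 the NK share was 0% to 7.14%. ILC2 of brain at 72 h stood apart from other ILC2 with 671 CPM, against 65.3 to 279 CPM.

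**Figure D3:**
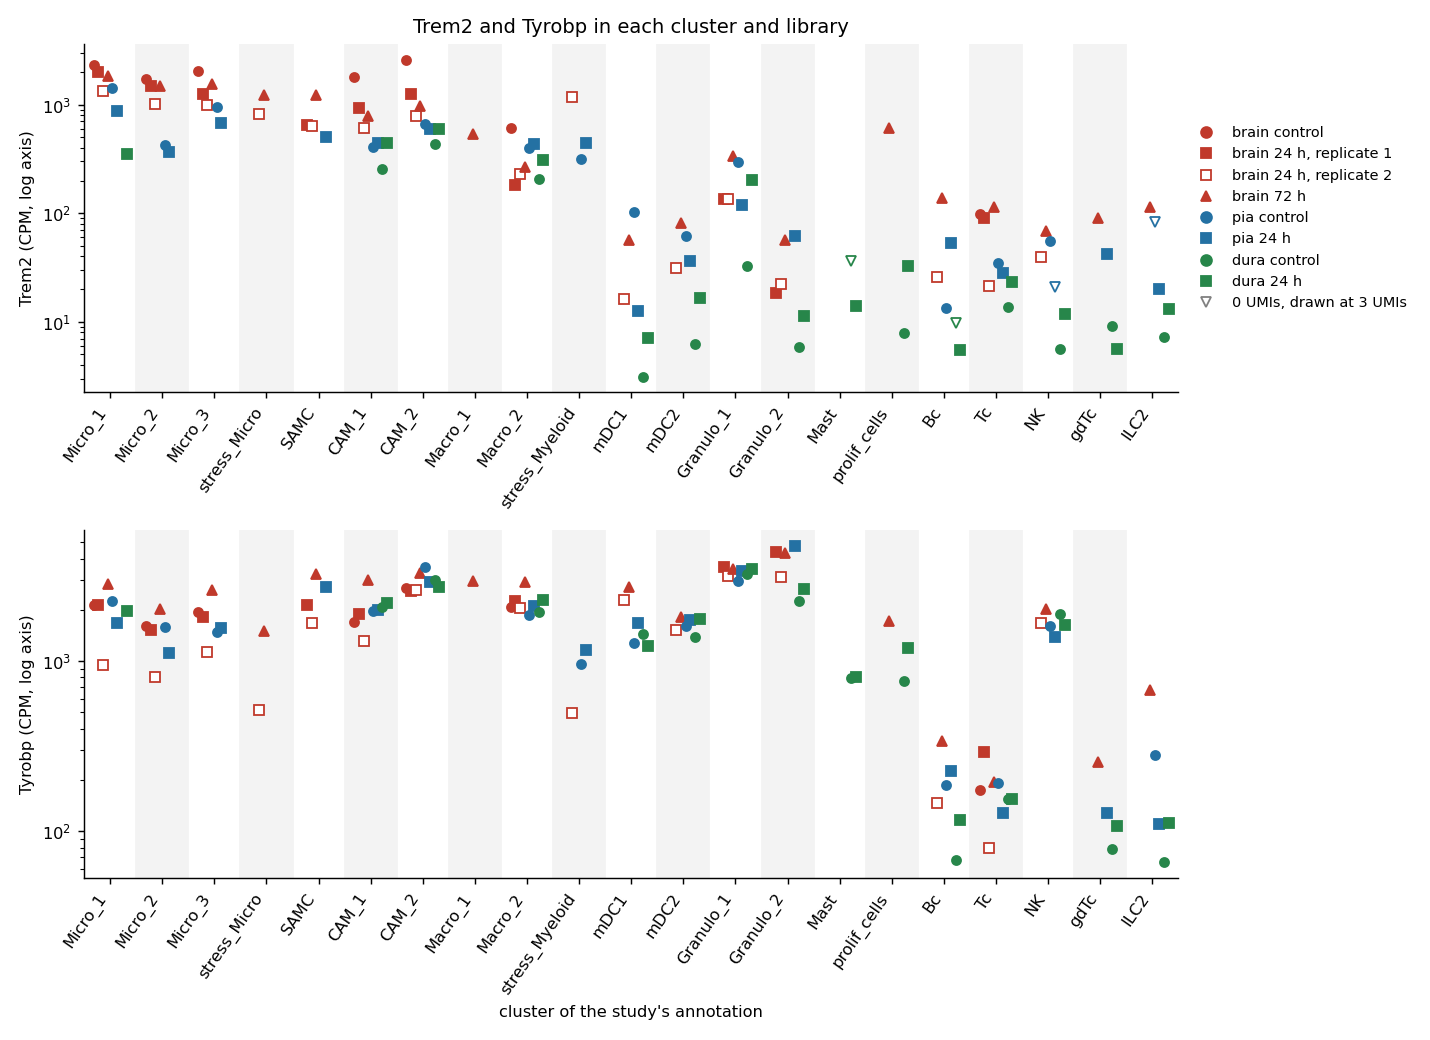
Trem2 (top) and Tyrobp (bottom) in CPM (log axis) by cluster, 1 point per library with at least 30 cells, with colours and markers for tissue and time as in the Apoe plot (brain red, pia blue, dura green). The mean of Trem2 over libraries is highest in Micro_1, whose points run from 351 to 2309 CPM, although CAM_2 of brain control lies above them all. Tyrobp in NK lies between 1388 and 2032 CPM, above the T cells at 79.0 to 291 CPM.

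Lrp1, the endocytic receptor, followed the gene list of the files more than tissue or time. CAM_1 had 49.8 CPM in brain control, 76.6 CPM in brain 24 h replicate 1, 895 CPM in replicate 2, 637 CPM in brain at 72 h, 32.9 and 33.3 CPM in pia and 28.0 and 48.8 CPM in dura. Micro_1 had 52.9, 96.2, 716 and 499 CPM in the brain libraries, 30.1 and 25.2 CPM in pia and 111 CPM in dura at 24 h. SAMC had 93.1, 784 and 735 CPM in the brain libraries and 50.2 CPM in pia. The libraries with the shorter list were the highest in each of these clusters, and the 24 h replicates differed by 6.28 times in macrophages and 7.68 times in microglia.

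Within the shorter list Lrp1 in the summed macrophage clusters was at 476 CPM at 24 h and 487 CPM at 72 h (ratio 1.02), and in microglia the ratio was 0.671. Within the longer list it was at 55.9 CPM in brain control and 75.8 CPM at 24 h, 31.9 and 31.1 CPM in pia and 33.9 and 43.7 CPM in dura. T cells had 0 to 22.4 CPM. SAMC, the summed macrophage clusters and Micro_1 were above the highest T cell value in every library, but a comparison of Lrp1 between libraries cannot be told apart from one between gene lists where these differ. Because the shared barcodes group the libraries in the same way, the gene list itself cannot be told apart from kit or batch.

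**Figure D4:**
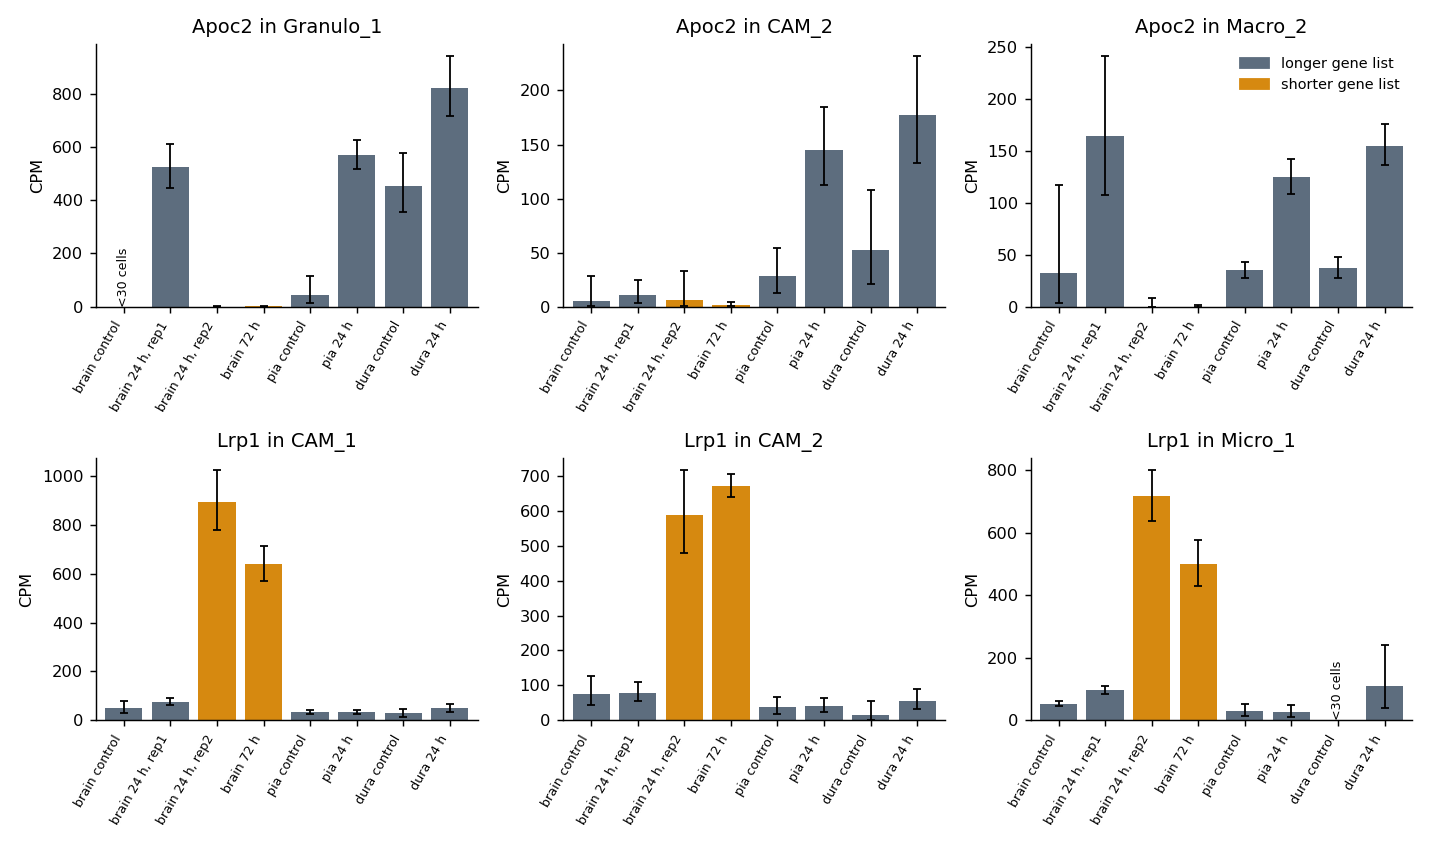
Apoc2 (top, in Granulo_1, CAM_2 and Macro_2) and Lrp1 (bottom, in CAM_1, CAM_2 and Micro_1) in CPM per library, with exact Poisson 95% intervals that cover counting error only. Orange bars are the libraries with the shorter gene list. There Apoc2 is at 0 and 0.835 CPM in Granulo_1, and Lrp1 in CAM_1 is at 895 and 637 CPM against 28.0 to 76.6 CPM in the other libraries.

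To compare tissues and times over libraries, the UMIs of CAM_1, CAM_2, Macro_1 and Macro_2 were summed per library and fitted with tissue and time across all genes with edgeR, where a gene was called if its fold was 2 or more and its adjusted p below 0.05. Nothing in the labels says that the libraries came from separate groups of animals, so p-values measure the spread between these libraries, which may be technical. The fits below without the shorter-list libraries, those of single clusters included, hold a single library per tissue and time and thus no replicates. Their p-values measure how far the time difference varied between tissues, and not a spread between replicates. In the fit of all 8 libraries none of the 8 genes was called for pia against brain, where 0.643% of 10887 genes were, or for dura against brain, where 1.19% were. Apoe was 3.5 ± 0.76 higher in pia and 3.51 ± 0.75 higher in dura on the log2 scale (± SE, adjusted p = 0.10 and 0.081). Trem2 was at -0.84 in pia and -1.28 in dura, Pltp at 1.87 and 2.98, and Tyrobp at 0.51 and 0.59. The median over the 8 genes was 1.91 in pia and 2.76 in dura, beside -0.14 and -0.15 over all genes tested.

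Without the libraries of the shorter list, the spread was smaller and 20.6% of 9421 genes were called for pia and 25.0% for dura. Of the 8 genes, 6 were called in each. Apoe was 4.0 ± 0.46 higher in pia (adjusted p = 0.00073) and 4.08 ± 0.47 higher in dura (0.00062). Pltp was 4.15 ± 0.38 (0.00027) and 5.36 ± 0.38 (8.7e-05) higher, and Apoc2 2.35 ± 0.44 (0.0068) and 2.98 ± 0.44 (0.0021). Apoc1 and Apoc4 were also called as higher, but with 5 UMIs and 1 UMI in the brain libraries of this fit their fold is not given. Trem2 was lower, at -1.29 ± 0.37 (0.034) in pia and -1.77 ± 0.38 (0.0099) in dura. Tyrobp (0.41 and 0.49, adjusted p = 0.19 and 0.11) and Lrp1 (-0.67 and -0.35, adjusted p = 0.052 and 0.24) were not called. The share of all genes called in this fit is large, and 6 of 8 is to be read against it.

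The same fit was made for single clusters, an alternative chosen after seeing the data. In CAM_1, where 24.1% of 7749 genes were called for pia and 27.3% for dura, Apoe was 6.07 and 6.27 higher, Pltp 5.89 and 6.96, Apoc2 4.04 and 5.55, and Trem2 was at -1.39 and -1.58, all called, with few UMIs of Pltp and Apoc2 in brain. In CAM_2, where 20.3% and 19.2% of 4517 genes were called, Apoe was 3.72 and 3.51 higher, Apoc2 3.67 and 4.08, and Trem2 was at -1.40 and -1.71, all called. In Macro_2 2.78% and 3.53% of 7762 genes were called, and of the 8 only Pltp in dura was among them (2.03 ± 0.39, adjusted p = 0.00029). Apoe in Macro_2 was at 1.47 ± 0.98 and 1.66 ± 1.02 and Trem2 at 0.63 and -0.11, none called. The summed microglia genes moved with the tissue in CAM_1 as given above and in CAM_2, where they were at 13949 and 3553 CPM in the brain libraries of this fit and 370 to 599 CPM in pia and dura, and in Macro_2 by less. In the longer-list brain libraries, the sum was mostly CAM_1 and CAM_2 cells that carry microglia genes, with 35 and 56 cells of Macro_2 against 1044 and 832 in pia. The part of these markers in the tissue differences was not tested, and a difference between tissues in macrophages cannot be told apart here from one between microglia-marked and border cells under the same cluster names.

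**Figure D5:**
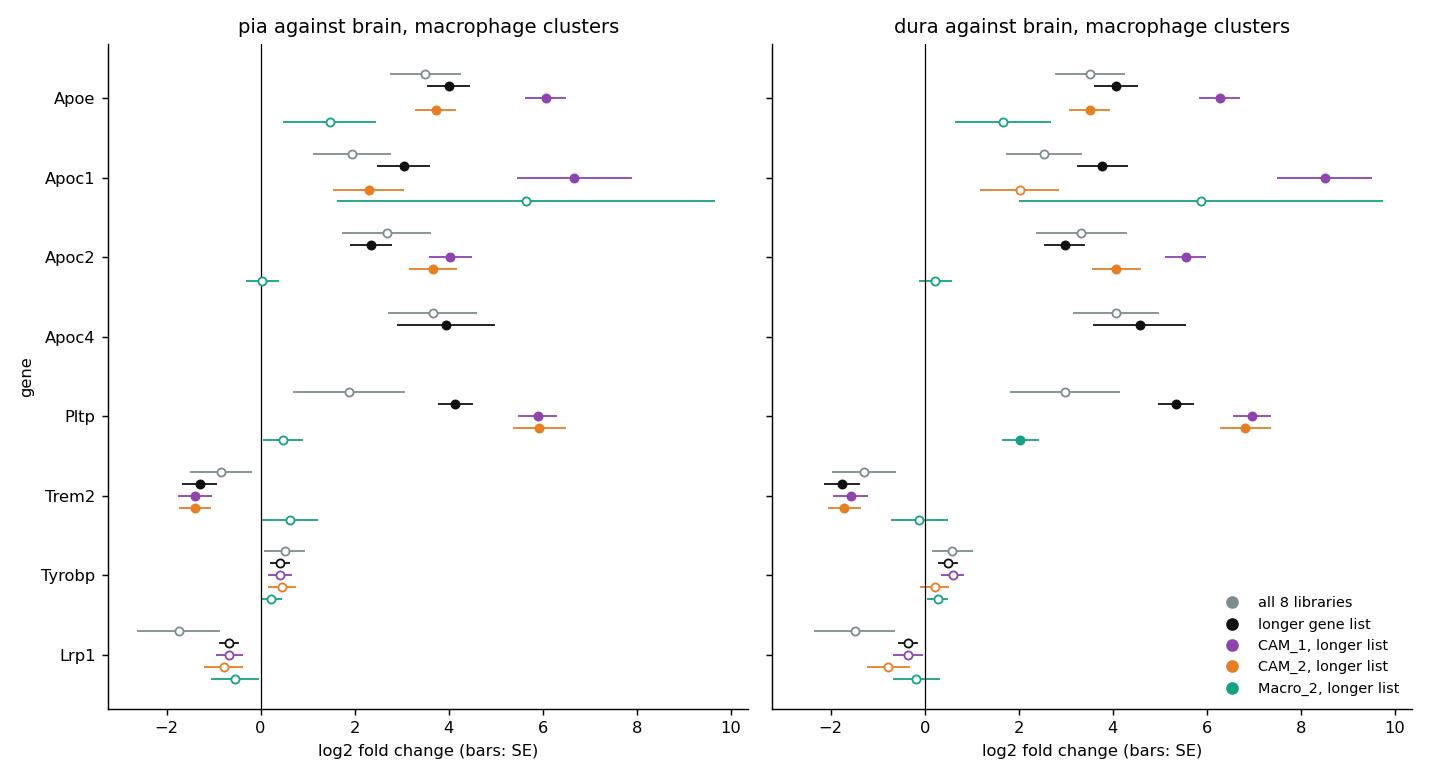
Log2 fold changes of the 8 genes in macrophage clusters, pia against brain and dura against brain, with bars of 1 SE, in the fit of all 8 libraries, in the libraries with the longer gene list, and in CAM_1, CAM_2 and Macro_2 alone. Filled points were called, with a fold of 2 or more and an adjusted p below 0.05. Apoe lies between 1.47 and 6.27 and Trem2 between -1.77 and 0.63, and points of Apoc1, Apoc4 and Pltp whose brain libraries hold few or no UMIs depend on the prior count of the fit.

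Over time, none of the 8 genes was called in the fit of all libraries. All lymphoid fits, here and below, summed NK with B cells, T cells, γδ T cells and ILC2, unlike the background without NK above. In macrophages edgeR called 0 of 10887 genes (0.0%) for 24 h against control and 0 (0.0%) for 72 h against 24 h, with 468 and 790 genes at an unadjusted p under 0.05, and DESeq2 called 18 and 94. In microglia it called 0 of 10213 genes (0.0%) for both, with 223 and 215 at an unadjusted p under 0.05, and DESeq2 called 8 and 6. In lymphoid cells it called 2 of 8967 genes (0.0223%) for 24 h and 0 (0.0%) for 72 h, with 139 and 129 at an unadjusted p under 0.05, and DESeq2 called 0 and 1. Apoe at 72 h was at 2.88 ± 0.87 in macrophages (adjusted p = 0.67) and 2.04 ± 0.64 in microglia (1.0), and the 72 h estimates rest on 1 library.

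Within the longer list, 1.44% of 9421 genes were called in macrophages for 24 h against control and 2.23% of 6319 in microglia, but none of the 8. Nearest were Apoc2 at 1.58 ± 0.32 (adjusted p = 0.051) and Apoc1 at 1.43 ± 0.33 (0.063), whereas Apoe was at -0.61 (0.32) and Tyrobp at 0.03. In single clusters, Apoc2 rose at 24 h in CAM_1 by 2.09 (adjusted p = 0.0011), in CAM_2 by 1.95 (0.0061) and in Macro_2 by 1.91 ± 0.22 (8.7e-10), where 4.77%, 4.52% and 2.58% of genes were called. With 24 h and control libraries of 3 tissues each, Apoc2 was the gene of the 8 whose time difference held in every macrophage cluster fitted. Apoc2 was also higher at 24 h outside macrophages in pia and dura, as given above for Granulo_1, mDC2 and lymphoid cells.

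With the gene list as a term of the model, also chosen after seeing the data, 2.33% of genes were called in macrophages for 24 h, among them Apoc1 (1.44, adjusted p = 0.040) and Apoc2 (1.61, 0.027). For 72 h against 24 h 0.799% were called, among them Apoc1 (2.96 ± 0.47, 0.026) and Pltp (2.05 ± 0.40, 0.045), while Apoe was at 2.25 ± 0.58 (0.11). In microglia 4.66% were called for 72 h, among them Apoe (1.52 ± 0.31, 0.00014) and Tyrobp (1.61 ± 0.30, 1.6e-05). In lymphoid cells 0.669% were called for 72 h, among them Trem2 (1.68 ± 0.36, 0.0012), a gene these cells are not known to make. In this model the 72 h library is the only one of its time and shares its list with brain 24 h replicate 2 alone. The 72 h against 24 h values thus compare these single libraries, with the spread taken from the other libraries. The p-values for 72 h therefore measure no spread at 72 h, and the 24 h values rest on the longer-list libraries alone.

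The genes around the 8 in their pathways were read in the macrophage fit of the longer list, where the medians of all genes were -0.02 in pia and dura and, as above, 20.6% of genes were called in pia and 25.0% in dura. The counts of called genes in each list are to be read against these shares. Of 10 genes of sterol efflux and liver X receptors 9 were tested. Nr1h3, the macrophage liver X receptor, was higher in pia (2.71, adjusted p = 0.022) and dura (3.49, 0.0057), and Abca1, which exports cholesterol to apolipoproteins, in dura (1.37, 0.0022). Lpcat3, a phospholipid-remodelling enzyme, was lower in pia (-2.39, 0.00063) and dura (-2.07, 0.0012), as was the cholesterol exporter Abcg1 in pia (-1.99, 0.0024). The list's median was -0.38 in pia and -0.27 in dura, and its called members thus went both ways. Of 12 other apolipoproteins 2 were tested, and Apod, a lipocalin, was called as higher in pia (0.00077) and dura (0.0043), from 0 UMIs in both brain libraries of the fit.

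Of 11 genes of further lipoprotein and sorting receptors (the Lrp family and its kin) 8 were tested. Lrp6, a Wnt co-receptor, was higher in pia (2.66, 0.00055) and dura (2.65, 0.00052), and the sorting receptor Sorl1 in dura (1.31, 0.04985), while Sort1, another sorting receptor, was lower in pia (-2.38, 0.0029) and dura (-2.14, 0.0050). The median was -0.25 in pia and -0.40 in dura. Of 13 genes of TREM2 and DAP12 signalling all were tested, and Vav3, an exchange factor (3.42, 0.0017 and 3.29, 0.0021), and Hcst, the DAP10 adaptor (1.05, 0.018 and 1.43, 0.0047), were higher in pia and dura, and Vav1 was lower in dura (-1.14, 0.0042). The other 10 were not called in either tissue, with a list median of -0.33 and -0.36.

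Of 12 other receptors of the TREM family or coupled to DAP12, 9 were tested. Siglech, a lectin of microglia and plasmacytoid dendritic cells, was lower in pia (-2.77, 0.00030) and dura (-3.38, 0.00015), and it alone of all lists was also called in the fit of 8 libraries (dura, -3.07, 0.045). Klrk1, which encodes the receptor NKG2D, was higher in pia (2.37, 0.011) and dura (3.65, 0.0010), and Cd300lb, Pilrb1 and Pilrb2 were higher and Clec5a lower in dura. At 24 h, Trem1, an amplifier of inflammation, rose by 2.95 (0.027) and Siglech fell by 1.53 (0.031) over the 3 tissues. Of 17 genes of disease-associated microglia, which is a program known to depend in part on Trem2, 15 were tested: Cd9 (-2.78 and -3.74), Cst7 (-2.93 and -4.01), Csf1 (-3.58 and -4.81), Ctsd (-2.17 and -1.97) and Ctsl (-1.75 and -2.30) were lower and Axl, a phagocytic receptor kinase (2.88 and 2.97), was higher in pia and dura. Of the same list, Spp1 rose by 6.03 (0.031) and Lpl by 3.80 (0.00030) in the microglia clusters at 24 h.

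Across the 112 library and cluster sums of at least 30 cells, the genes most like each of the 8 were found by Pearson's r of log2(CPM + 10) among 5836 genes, a description in which points share libraries, depth and clusters. Apoe was most like Ms4a7 (r = 0.87), Pf4 (0.81) and Cbr2 (0.74), genes of border macrophages, and Pltp was most like Ms4a7 (0.79), Axl (0.78) and Clec4a1 (0.76). Trem2 was most like Itgb5 (0.95), C1qa (0.94) and Lgmn (0.93), and Tyrobp most like Fcer1g (0.94), an adaptor of Fc receptors, Alox5ap (0.79) and Cd300a (0.77). Lrp1 was most like Plxnb2 (0.93), Rrbp1 (0.91) and Zeb2 (0.89), Apoc1 most like Ecm1, Sash1 and Akr1a1 (0.65 each), Apoc2 most like Ccl6 (0.73), Sod2 (0.72) and Gm21188 (0.72), and Apoc4 most like Sash1 (0.52).

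Within the 50 sums of macrophage, SAMC and microglia clusters alone, Apoe was most like Ms4a7 (0.95), Lyz2 (0.92) and Cpne2 (0.91), and Trem2 most like Olfml3 (0.92), Itgb5 (0.90) and P2ry13 (0.87). Between the 8 genes, Apoe and Pltp had r = 0.86 here and 0.66 over all clusters. Apoe and Trem2 had r = -0.60 within these clusters and 0.41 over all clusters, so the sign differed between these sets of sums. Trem2 and its adaptor Tyrobp had r = 0.47 over all clusters and -0.08 within these.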

How the data were processed

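Leukocytes of brain, pia and dura were measured by 10x Genomics single-cell RNA-seq with 3′ kits of versions 2 and 3. The authors made UMI counts per gene and cell with Cell Ranger 6.0, per the labels on genome build mm10, removed cells of low quality and doublets, aligned the libraries with Harmony and named the clusters; the deposited counts are not normalized. Whether 3′ counts of overlapping genes were split by strand was not tested. The deposited annotation covers 32457 of the 36854 barcodes in the files, of which 581 carry a barcode sequence also found in another library. No sample was dropped or imputed except where a class had fewer than 30 cells.

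UMI counts were summed per library and cluster. Levels are CPM of these sums. CPM, ratios between libraries and shares carry exact 95% intervals that cover counting error only (Clopper-Pearson for shares, exact Poisson for CPM), while ratios between clusters of a library carry none. edgeR 4.0.16 in R 4.3.3 (quasi-likelihood test, TMM, its filter on low counts, Benjamini-Hochberg adjustment over all genes tested) was fitted with tissue and time on sums per class, and DESeq2 1.42.0 was an alternative. On simulated data for the same libraries, 200 genes changed by 4-fold were recovered to 92.5%, 39%, 75% and 74.5% for 24 h, 72 h, pia and dura in macrophages, to 78.5% and 32.5% for 24 h and 72 h in microglia, and to 74% and 29.5% in lymphoid cells. The simulation gave every gene the same fixed dispersion and held no difference between gene lists. Its shares are therefore not the power of the fits on the real libraries. Named were the 8 genes, the called genes of 6 pathway lists (the 3 highest and 3 lowest per list, others as counts or by name alone) and the 3 genes most like each of the 8. The members and lists were chosen with earlier results of these data known. Promoter windows were matched by symbol, and 2 of the 8 genes, Tyrobp and Apoc1, had no window. A marker gene and a pathway gene are not reported here and were left out of their lists.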

Additional observations from a re-analysis of the deposited data

Results flagged for a closer look

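At 24 h against control, 9 comparisons of Apoe or Trem2 were flagged. Each moved one way in both brain replicates and the other way at a border. They rest on the CPM of single libraries, with at least 30 UMIs behind each ratio. The 9 are not a full count, since Trem2 in CAM_1 of pia also rose slightly. Nor are they separate cases, since summed clusters repeat their members. These opposite directions were not tested, and the control and the border values are 1 library each. Brain 24 h replicate 2 carries the shorter gene list and its control the longer one, which moves with its ratios.

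For Apoe in Macro_2, the log2 ratio was 0.31 in dura and -2.47 and -2.08 in the brain replicates. In microglia Apoe went the other way round, with -0.14 in pia against 0.89 and 1.81 in brain for Micro_1, -0.53 against 1.28 and 1.91 for Micro_2, -2.00 against 0.45 and 1.69 for Micro_3, and -0.56 against 1.01 and 1.94 for the summed microglia clusters. The lymphoid background without NK moved in the same directions. It fell in pia from 4373 to 1669 CPM. In brain it rose from 46.6 CPM (3 UMIs) to 119 and 280 CPM. The part of this background in the microglia ratios was not tested. For Trem2, CAM_1 had 0.80 in dura against -0.94 and -1.55 in brain, and CAM_2 had 0.45 in dura against -1.04 and -1.71 in brain. The summed macrophage clusters had 0.11 in pia and 0.68 in dura against -1.0 and -2.10 in brain. The microglia genes in the summed macrophage clusters were at 11480 CPM in brain control, 3538 and 1226 CPM in the brain 24 h replicates, 439 and 298 CPM in pia and 254 and 302 CPM in dura, controls first, and their part in these ratios was not tested.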

How the results depend on the processing

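No paired analysis was possible because only brain at 24 h has 2 libraries, so the groups share fewer than 2 replicate numbers. The counts of called genes changed with the gene list, the filter, the tool and single libraries. For 24 h, 72 h, pia and dura in macrophages (0, 0, 70 and 130 genes called) they were 254, 87, 2050 and 2499 with the gene list as a term, 136 (24 h), 1941 (pia) and 2352 (dura) without the shorter-list libraries, 18, 94, 479 and 700 with DESeq2, and 70, 300, 719 and 867 with no filter on low counts. Pia and dura gave 5 and 42 with library size alone, 142 and 205 after thinning to 1000 UMIs, and 0 and 0 without brain 72 h and dura 24 h, to which the study's supplement gives kit version 3, although gene lists and shared barcodes group brain 72 h with brain 24 h replicate 2. For 24 h, pia and dura, CAM_1 alone gave 370, 1864 and 2118, CAM_2 alone 204, 918 and 869, and Macro_2 alone 200, 216 and 274. Brain libraries only gave 1 for 72 h in macrophages and 1 in microglia. For 24 h and 72 h, microglia (0 and 0) gave 204 and 476 with the term, 8 and 6 with DESeq2, 16 and 11 with no filter, and 141 for 24 h without the shorter-list libraries. Lymphoid cells (2 and 0) gave 85 and 60, 0 and 1, 10 and 7, and 44 in the same order, and 0 for 24 h without the kit version 3 libraries. Leaving out each library in turn gave 0 to 239, 0 to 4188, 0 to 2028 and 0 to 2498 in macrophages, 0 to 197 and 0 to 3443 in microglia and 0 to 87 and 0 to 1587 in lymphoid cells, always highest without brain 24 h replicate 2 and lowest without brain control or, in microglia at 72 h, dura control. For 72 h, leaving out the shorter-list or the kit version 3 libraries was not possible, since both remove the 72 h library. The cause of these shifts was not tested. The gene list splits the libraries as the shared barcodes do, so it cannot be told apart from other differences between these groups of libraries.

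Of the log2 changes of the 8 genes, 446 kept their direction and side of the threshold, 75 passed it anew and 25 turned their direction, and when each library was left out 380, 23 and 17 did. At 24 h in macrophages Tyrobp was at 0.037 in CAM_1, 0.13 in Macro_2, 0.050 with the term, 0.028 without the shorter-list libraries, 0.070 with library size alone and 0.0064 with no filter. Pltp was at -0.62 in CAM_1, -0.42 in CAM_2, -0.42 in Macro_2, -0.50 with the term and -0.50 without the shorter-list libraries, Lrp1 at -0.071 in Macro_2 and Apoc2 at -0.95 in brain only. At 72 h Apoc2 was at 0.13 with the term, and Trem2 at 0.89 with the term and 0.064 in brain only, and Trem2 in pia was at 0.63 in Macro_2. In microglia Pltp at 24 h was at -0.34 with the term, -0.37 without the shorter-list libraries and -0.15 after thinning, and Lrp1 at 72 h was at -0.44 with the term. In lymphoid cells at 24 h Apoe was at -0.38 with the term and -0.39 without the shorter-list libraries, Pltp at -0.19 with DESeq2 and Tyrobp at 0.0013 in brain only. Leaving out each library turned Apoe (-0.59 to 0.048), Pltp (-0.50 to 0.98), Trem2 (-0.91 to 0.36) and Tyrobp (-0.085 to 0.081) at 24 h, and Trem2 at 72 h (-0.97 to 0.064) and in pia (-1.26 to 0.029), in macrophages. It turned Apoe (-0.20 to 0.89) and Pltp (-0.35 to 0.83) at 24 h and Trem2 (-0.020 to 0.44) at 72 h in microglia, and Apoe (-0.52 to 0.96), Pltp (-1.36 to 1.23) and Trem2 (-0.98 to 0.26) at 24 h in lymphoid cells. The cluster with the highest mean was the same for 6 of 8 genes with 10 cells as the minimum, 7 with mitochondrial and ribosomal protein genes left out and 6 with UMIs summed over libraries.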
